A study of Mus musculus with 4 samples.

Results

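Cd34, Ly6a, Ly6c2 and Fap encode cell surface proteins that are used to mark stem and progenitor cells or activated fibroblasts, and the values below describe them in C2C12 cells, a mouse myoblast line, with and without the compound labelled Bex. They are the rows of the authors' deposited table of Bex against Ctrl whose gene symbol is exactly one of these names. Each gene had 1 transcript cluster, the array's unit for 1 transcribed region, so the members are 4 of the 536 genes with a single symbol in that table and 4 of the 35557 clusters on each array. Another row, with the joint symbol of Ly6c1 and Ly6c2, is outside the rule and is given beside Ly6c2. The table was cut by the authors on fold change and p-value. It is taken here to come from these same arrays, although many of its averages do not match their deposited values, as given below. Every Bex against Ctrl value of the members is therefore a description without a test. The lowest fold size in the authors' deposited table was 1.51, shared by 11 clusters, of which Ly6a is one and thus lies just inside. Rows outside that table carry no gene name here, so no member just outside can be given.

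The Ctrl group was 2 arrays of C2C12 cells grown to confluence and then kept for 48 h in a basal adipogenesis medium, and the Bex10 group was 2 arrays of such cells kept for the same time in that medium with 10 µM Bex. The labels do not spell Bex out; from knowledge of the study it is bexarotene, which activates the retinoid X receptors (RXRs). Both groups share the adipogenic medium, so the comparison is of the compound within that medium. C2C12 is 1 established line, and although 2 batches of cells are mentioned in the labels, no array is assigned to either, so the spread between arrays may be partly technical. Values are log2 after RMA, which evens out the overall level of the arrays, and array medians lay between 5.76 and 5.80. Of 12 regulators that define myoblasts only Pax7 could be named, so the labelled cell type could be checked against that gene alone. It was measured at 9.66 and 9.58 on the Ctrl arrays and was lower with Bex, with a log2 difference of -0.60 ± 0.08 (SE, n = 2 per group). As RNA came from whole cultures, fewer cells that carry a marker and less of its RNA in each cell cannot be told apart.

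CD34 is a sialomucin, a heavily glycosylated membrane protein known from blood stem cells, vessel lining, quiescent muscle satellite cells and stromal progenitors of fat. Ly6a, better known as Sca-1, and Ly6c are small proteins held on the outer membrane by a glycolipid anchor. In mouse muscle Sca-1 marks the fibro-adipogenic progenitors, interstitial cells that can form fibroblasts or fat cells, and in blood Ly6c marks subsets of monocytes and T cells. Both genes can be induced by interferons. FAP is a membrane serine protease of the dipeptidyl peptidase family, low in most resting tissues and known from activated fibroblasts in wounds and tumours.

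The 4 genes did not share a direction. Cd34, Ly6a and Ly6c2 were lower on both Bex10 arrays than on both Ctrl arrays, and Fap was higher. The groups thus did not overlap for 4 of 4 members, while 44.7% of all clusters showed no overlap (24.2% lower and 20.6% higher), and the authors' cutoffs on these arrays favour clusters without overlap, so nothing is read from the count. By array means, 3 of the 4 members differed by 1.5-fold or more, as did 6.45% of all clusters, and Ly6a did not. These shares, and the levels and gaps of all clusters used below, include 6669 clusters of low ID, which may be array controls. Among the 3 lower genes the difference was largest for Cd34 and smallest for Ly6a, and Fap, dim in Ctrl cells, is not ranked with them.

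Cd34 was 2.32-fold lower with Bex, the equivalent of 43.2% of its Ctrl level. It was measured at 6.94 on Ctrl 1 and 6.94 on Ctrl 2, and at 5.74 on Bex10 1 and 5.71 on Bex10 2. Both Bex10 arrays lay far below both Ctrl arrays, with a gap of 1.20 between the nearest arrays of the groups. The log2 difference was -1.21 ± 0.08 (SE of limma's moderated fit, n = 2 per group), where the error rests mostly on the spread of all other clusters because the arrays of each group were so close. The Ctrl values differed by 0.0008, and among the 1000 clusters nearest in mean level only 0.2% had a smaller gap between the Ctrl arrays, against a median gap of 0.133. A p-value cutoff such as that of the authors' table favours clusters with close arrays, so this closeness may be partly built into the choice of the gene. How far is uncertain, because the authors' averages for Cd34 differ from these array values, as given next.

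The size of the Cd34 difference depended on the source. The authors' deposited table gave log2 averages of 6.33 for Ctrl and 5.31 for Bex, a 2.03-fold reduction, and both averages lie below every array of their group in the value table. The gap to the value table was -0.61 for Ctrl, a size reached by 3 of the 559 clusters of that table, and -0.41 for Bex, a size reached by 15. For comparison, the median gap over those clusters was 0.0711 for Ctrl and 0.0705 for Bex. An average outside both arrays of its group, by more than 0.005, was found in at least 1 group for 418 of the 559 clusters, a value that no average of the 2 deposited arrays can take. The direction was the same in both sources.

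**Figure D1:**
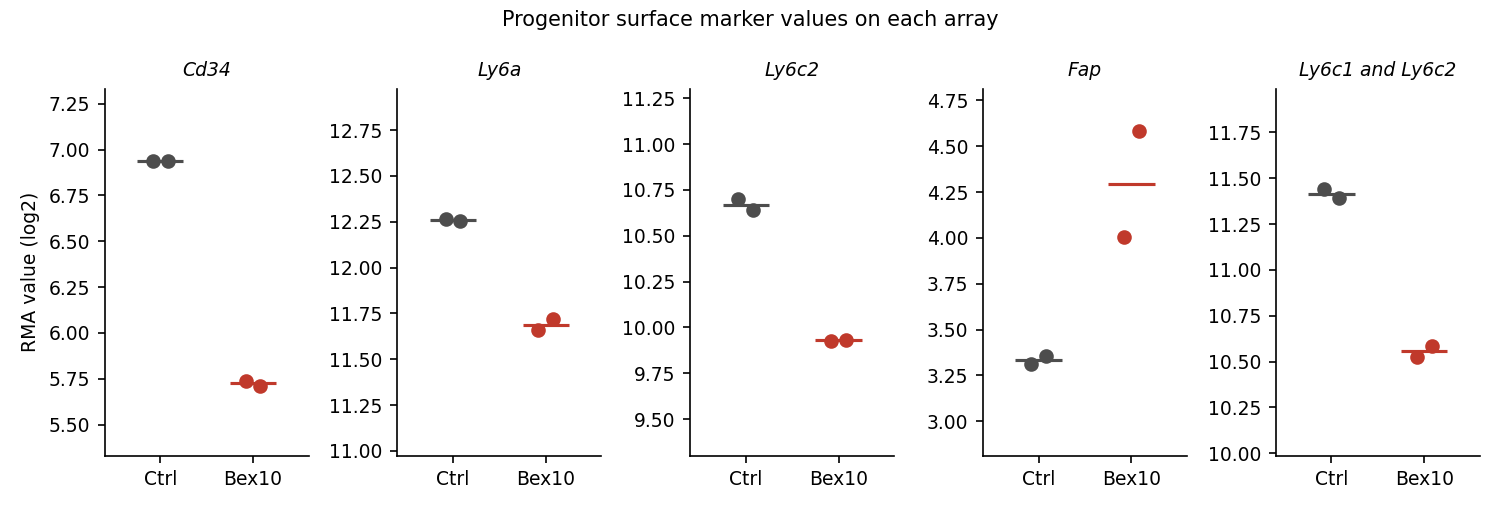
RMA values (log2, vertical axis) of Cd34, Ly6a, Ly6c2, Fap and the joint Ly6c1 and Ly6c2 cluster on the 2 Ctrl arrays (grey) and the 2 Bex10 arrays (red), with the group mean as a line; each panel spans the same number of log2 units. Cd34 and the Ly6 clusters lie lower on both Bex10 arrays, and Fap lies higher with its Bex10 arrays at 4.00 and 4.58.

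**Figure D2:**
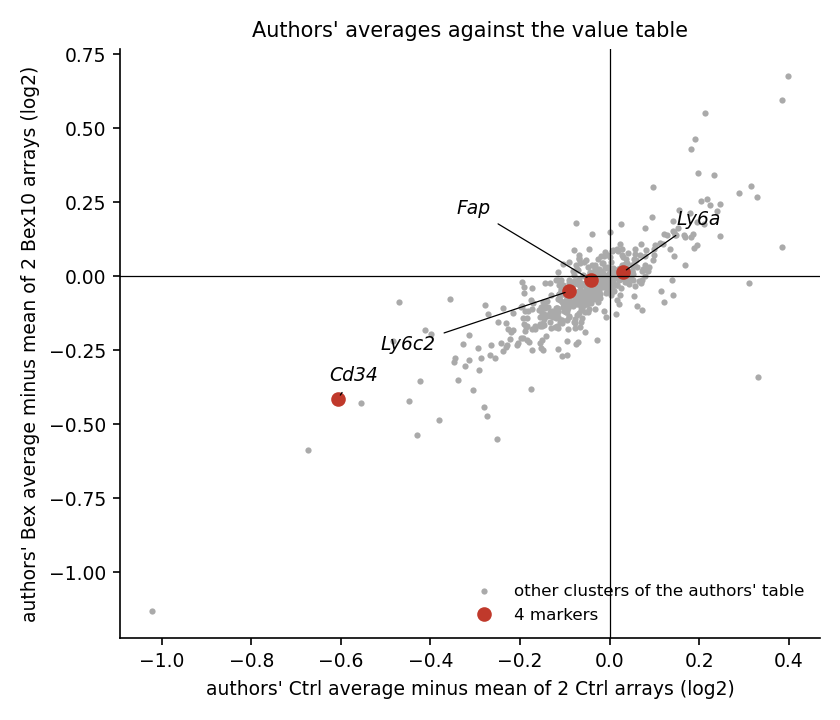
The authors' log2 average minus the mean of the value table's arrays for each of the 559 clusters, Ctrl on the horizontal and Bex on the vertical axis (log2), with the 4 markers in red. Cd34 lies at -0.61 and -0.41, away from Ly6a, Ly6c2 and Fap, which lie within 0.0906 of 0 on both axes.

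The RefSeq promoter of Cd34 (GRCm38.p6, chr1:194938571-194938870, plus strand, 250 bases before to 50 after the start) is shown because Cd34 had the largest difference of the 3 lower genes; 2 of the 4 members, Cd34 and Ly6c2, were matched to that table by symbol. Capitals would mark matches, on either strand, to any of 8 motifs. These were the TATA box TATAAA, the CCAAT box, the GC box GGGCGG, the STAT site TTCNNNGAA, the AP-1 site TGANTCA and the ETS core GGAAGT. The others were the nuclear receptor core AGGTCA, bound by RXR and its partners, and its direct repeat AGGTCANAGGTCA, which contains the core. The sequence held 0 matches, which says only that these letters are not in this window.
Cd34: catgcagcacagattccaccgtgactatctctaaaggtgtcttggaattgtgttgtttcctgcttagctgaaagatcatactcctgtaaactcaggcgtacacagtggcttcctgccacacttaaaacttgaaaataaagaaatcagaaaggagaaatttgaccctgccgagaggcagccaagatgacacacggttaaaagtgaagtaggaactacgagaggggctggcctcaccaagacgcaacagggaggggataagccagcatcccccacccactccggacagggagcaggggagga
Across all 32851 promoters of the table, 16.3% held AGGTCA, 0.0396% held AGGTCANAGGTCA, 8.3% held TTCNNNGAA and 7.81% held TGANTCA.

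Ly6a and Ly6c2 were lower with Bex by less than Cd34. Ly6a was measured at 12.27 and 12.26 on the Ctrl arrays and at 11.66 and 11.72 on the Bex10 arrays. The arrays of a group differed by 0.0593 at most, and the nearest arrays of the 2 groups were 0.54 apart. The log2 difference was -0.57 ± 0.08 (moderated SE, resting mostly on other clusters as for Cd34, n = 2 per group), or 67.2% of the Ctrl level. By the value table this is a 1.49-fold reduction, under the 1.5-fold that the authors' deposited table asks for and reaches with averages of 12.29 and 11.7. Altogether 36 of its 559 clusters were under 1.5-fold by the value table.

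Ly6c2 was measured at 10.70 and 10.64 on the Ctrl arrays and at 9.93 and 9.93 on the Bex10 arrays. The Bex10 arrays differed by 0.0068, and 4.0% of the 1000 clusters nearest in level had a smaller gap there, and the groups were 0.71 apart. The log2 difference was -0.74 ± 0.08 (SE, n = 2 per group), a 1.67-fold reduction, and the authors' deposited table gave 1.62-fold. As for Cd34, this moderated SE rests mostly on the spread of other clusters. The cluster shared by Ly6c1 and Ly6c2 read 11.44 and 11.39 on the Ctrl arrays and then 10.53 and 10.59 on the Bex10 arrays, a log2 difference of -0.86 ± 0.08. It was thus lower on both Bex10 arrays as well. These genes are close copies whose probes can share signal, so which of Ly6c1 and Ly6c2 was lower, and whether Ly6c2 differed apart from its neighbour, is uncertain.

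In the gene order of GRCm38.p6, which was used for names and neighbours only, Ly6a, Ly6c1 and Ly6c2 are consecutive protein-coding genes on chromosome 15. Lynx1, a related gene whose product binds nicotinic acetylcholine receptors, lies in the same stretch. From Lynx1 to Ly6c2 there are 14 protein-coding genes, of which 4 appear in the authors' table, Ly6c1 only through the shared cluster. All rows of these 4 were lower with Bex. That table holds 559 of all 35557 clusters, and 200 of its 536 named genes were lower. Genes enter it by the authors' cutoffs on these arrays, so nothing is read from the count. Lynx1 was measured at 9.57 and 9.51 on the Ctrl arrays and at 8.79 and 8.98 on the Bex10 arrays, a log2 difference of -0.66 ± 0.11. It did not pass the fit with a level-dependent variance that is described below. The other 10 genes of the stretch, among them Ly6e, Ly6d and Ly6i, were not analysed here. Next to Cd34 on chromosome 1, Plxna2, a semaphorin co-receptor gene, was also in the table with a log2 difference of -0.64. None of the 3 protein-coding genes on either side of Fap, Dpp4 among them, was named.

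The promoters of Ly6c2 and Ly6c1 are shown because a shared cluster measured both genes (RefSeq, GRCm38.p6, minus strand, chr15:75111922-75112221 for Ly6c2 and chr15:75048788-75049087 for Ly6c1, the outermost of the starts listed for each). Capitals mark matches to the 8 motifs.
Ly6c2: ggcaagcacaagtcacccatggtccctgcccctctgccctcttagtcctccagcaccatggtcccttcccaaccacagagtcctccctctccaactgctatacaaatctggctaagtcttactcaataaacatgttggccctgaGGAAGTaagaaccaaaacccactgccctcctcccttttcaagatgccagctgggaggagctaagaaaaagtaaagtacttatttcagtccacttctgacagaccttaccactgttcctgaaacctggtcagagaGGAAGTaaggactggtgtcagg
Ly6c1: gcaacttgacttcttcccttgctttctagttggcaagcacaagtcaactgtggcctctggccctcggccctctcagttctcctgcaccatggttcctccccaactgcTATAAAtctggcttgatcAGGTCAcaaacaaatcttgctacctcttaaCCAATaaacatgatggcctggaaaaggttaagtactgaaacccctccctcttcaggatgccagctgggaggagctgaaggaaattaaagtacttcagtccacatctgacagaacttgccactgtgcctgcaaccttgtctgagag
In a global alignment they had 214 identical positions of 340, or 62.9%, against 48.6% between Ly6c2 and Cd34. The Ly6c2 and Ly6c1 windows are offset, as the bases that open Ly6c2 come further into the Ly6c1 window. The 340 columns count bases without a partner, so the 62.9% partly reflects this offset and is no measure of how alike the gene copies are. Ly6c2 held GGAAGT at 2 places, a motif found in 23.8% of all promoters. Ly6c1 held 1 match each to TATAAA (13.6% of promoters), CCAAT (37.4%) and AGGTCA (16.3%). The 2 windows thus differed in which of these motifs they hold, and neither held TTCNNNGAA. The second GGAAGT of Ly6c2 lies near the end of its window, past the stretch that the Ly6c1 window reaches. Its counterpart in Ly6c1 was therefore not searched.

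Fap went the other way and was the least certain of the 4. It was measured at 3.31 and 3.36 on the Ctrl arrays and at 4.00 and 4.58 on the Bex10 arrays. The Ctrl arrays were alike, whereas the Bex10 arrays lay 0.58 apart, a wider gap than for 83.8% of the 1000 clusters nearest in level. The log2 difference was 0.96 ± 0.22 (SE, n = 2 per group), or 1.94-fold, and the authors' deposited table gave 1.99-fold. Within same-numbered arrays it was 0.69 and 1.23, and without Bex10 2 it was 0.67. On 3 of its 4 arrays Fap lay under 4.57, the level below which the dimmest 30% of clusters fall, so it was not shown to be above background in Ctrl cells and its fold is uncertain.

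**Figure D3:**
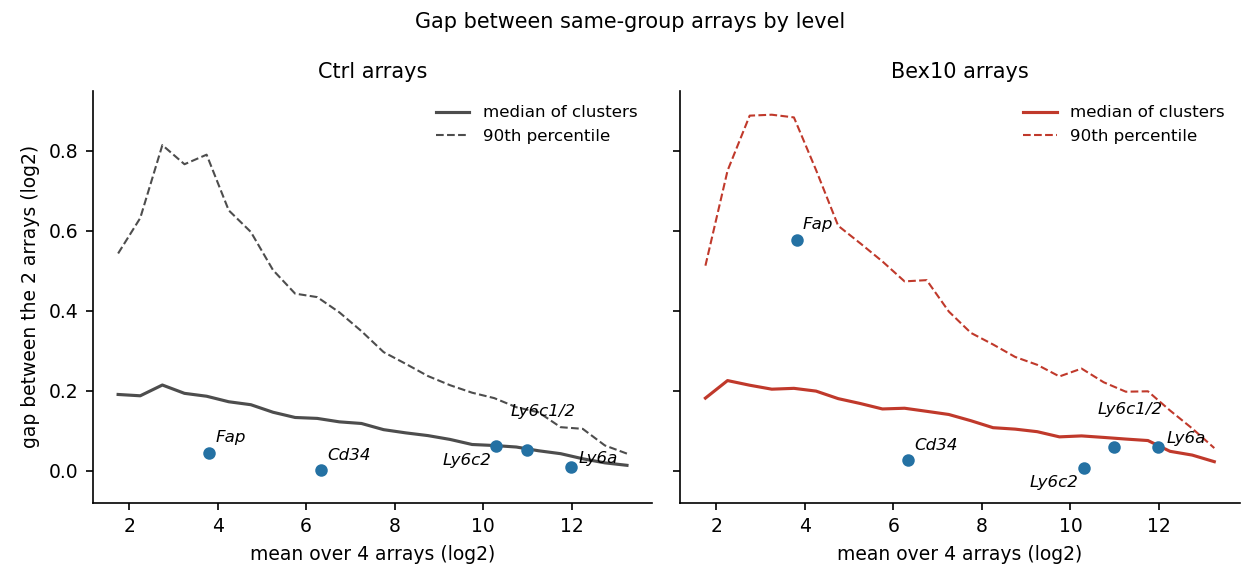
Gap between the 2 arrays of a group (log2, vertical axis) against mean level (log2, horizontal axis), for Ctrl on the left and Bex10 on the right, with the median and 90th percentile of all clusters in bins of level and the members and the joint Ly6c1 and Ly6c2 cluster as blue points. Fap on the Bex10 arrays, at 0.58, is well above the median line, and Cd34 on the Ctrl arrays, at 0.0008, lies at the bottom.

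Limma's test across all 35557 clusters at an adjusted p of 0.05 called 0 of the 4 members and 0.0% of all clusters, while 4189 clusters had an unadjusted p below 0.05. When the prior variance was allowed to follow the level, 3 members were called (Cd34, Ly6a and Ly6c2) against 1.2% of all clusters, 0.439% lower and 0.762% higher. With any single array left out this second fit called 0 members, and with the replicate number as a block it called Ly6a and Ly6c2 but not Cd34. The first fit without the dimmest clusters called 1 member (Cd34) of 3 tested, against 0.422% of clusters. Without clusters of low ID, which may be array controls, it called Cd34 and Ly6c2, against 1.03%, and all 4 members with the level-dependent variance as well, against 4.47%. The members were chosen from this contrast, so these counts support nothing.

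Other markers of fibroblasts and mesenchymal progenitors could be named in few cases. Of 30 listed genes 7 had a row in the authors' table, 2 higher and 5 lower, and without the 4 members 1 was higher and 2 were lower. Alcam, an adhesion molecule of mesenchymal cells, was measured at 8.71 and 8.70 on the Ctrl arrays and at 10.01 and 10.04 on the Bex10 arrays, a log2 difference of 1.32 ± 0.08. It was thus a surface marker with a difference of a size like that of Cd34 and of opposite sign. Tcf7l2, a Wnt pathway transcription factor of muscle fibroblasts, had a log2 difference of -0.62 ± 0.08, and Dcn, the matrix proteoglycan decorin, one of -0.78 ± 0.10. Alcam and Tcf7l2 passed the fit with a level-dependent variance and Dcn did not. That fit passed 56.2% of all 536 named genes, since naming itself required the authors' cutoffs, so counts of passing genes in this and the following lists are to be read against that share. The median over the 7 genes was -0.62, beside 0.67 over all 536 named genes (336 higher and 200 lower) and -0.01 over all clusters. The summed level of the 3 other genes (log2 of the sum) was 10.90 to 10.94 on the Ctrl arrays and 10.97 to 10.98 on the Bex10 arrays, whereas the mean of their log2 values was 8.85 to 8.86 on the Ctrl arrays and 8.81 to 8.84 with Bex, so the sign depends on the summary.

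Among surface markers of myoblasts and satellite cells, 3 of 15 could be named and all 3 were lower. Cav1, the scaffold protein of caveolae, had a log2 difference of -1.91 ± 0.14. The tetraspanin Cd82 read 11.92 and 11.88 on the Ctrl arrays but 11.07 and 11.14 on the Bex10 arrays, a log2 difference of -0.80 ± 0.08. Cxcr4, the chemokine receptor that guides migrating muscle precursors, had the same log2 difference, -0.80 ± 0.08. All 3 passed the fit with a level-dependent variance, beside 56.2% of named genes. The summed level of these markers (log2 of the sum) was 12.59 to 12.63 on the Ctrl arrays and 11.71 to 11.80 on the Bex10 arrays.

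Genes of activated fibroblasts, the cells in which FAP is best known, had 7 named genes of 23 listed, 1 higher and 6 lower, with a median log2 difference of -0.84. Col6a2, a collagen VI chain, was the higher one, with a log2 difference of 1.05 ± 0.12. Tagln, an actin-binding protein of smooth muscle and myofibroblasts, had a log2 difference of -1.04 ± 0.12, and Col12a1 one of -0.91 ± 0.08. Actg2, Mmp2, Thbs1 and Thbs2 lay between -0.60 and -0.87. In the fit with a level-dependent variance 1 higher and 4 lower genes of the list passed, beside 56.2% of all named genes, and Tagln and Thbs2 did not. Fap thus differed in sign from 6 of the 7 genes.

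**Figure D4:**
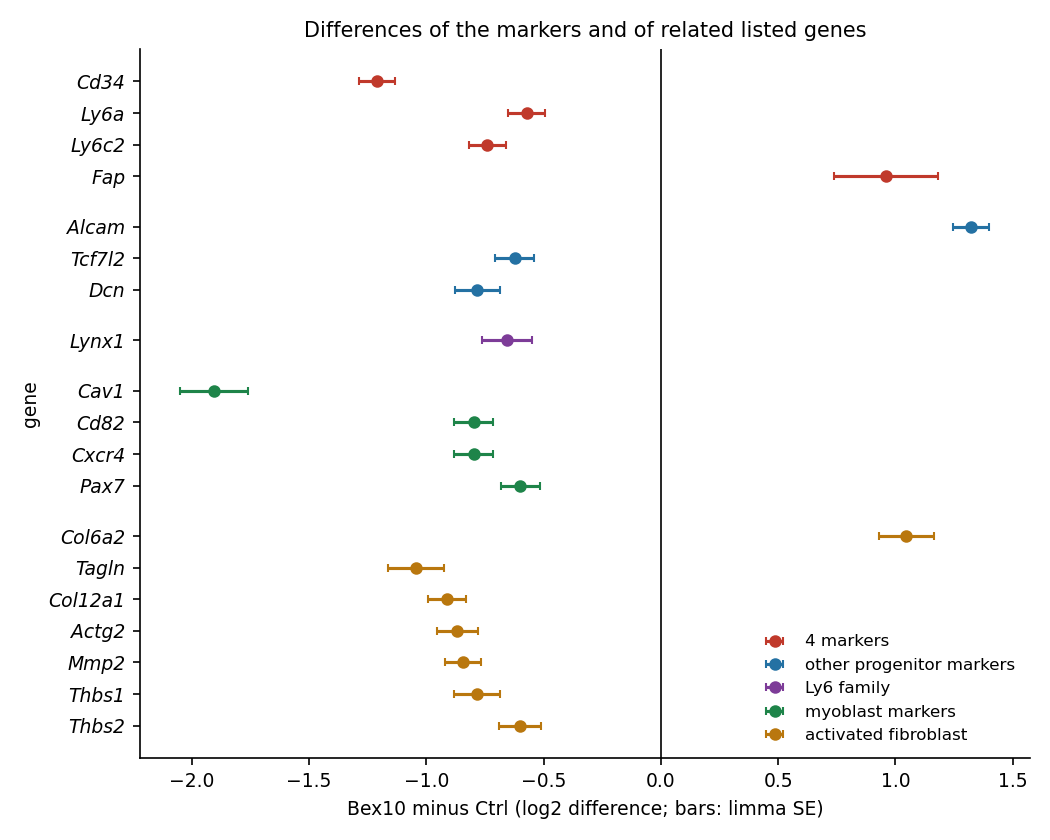
Log2 difference of Bex10 minus Ctrl (horizontal axis; points are differences of group means, bars are limma's SE, n = 2 per group) for the 4 markers and the named genes of related lists, grouped by colour. Fap, Alcam and Col6a2 lie right of 0, and Cd34, Ly6a, Ly6c2 and the others lie left of it.

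Beside the Ly6 genes, 1 of 30 listed interferon response genes could be named. This was the chemokine Ccl5, with a log2 difference of -0.91 ± 0.11, which did not pass the fit with a level-dependent variance. Ifitm1, an interferon-induced gene outside that list, had a log2 difference of -1.28 and is given below, where it was picked for its likeness to Cd34. Cd34, Ly6a and Ly6c2 are also expressed by blood or vessel cells. Of 14 endothelial markers 0 were named, and only genes past the authors' cutoffs could be. Of 18 blood cell markers 3 were named, all higher with Bex. They were the mast cell tryptase Tpsab1 (log2 difference 2.63 ± 0.11), the calcium-binding S100a8 (1.75 ± 0.10) and the lipopolysaccharide co-receptor Cd14 (0.90 ± 0.16). The summed level of the 3 (log2 of the sum) was 10.59 to 10.63 on the Ctrl arrays and 12.31 to 12.45 on the Bex10 arrays. The defining leukocyte marker Ptprc was not analysed here, and the part of other cells in the results was not tested.

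Adipocyte markers were mostly higher, with 7 higher and 1 lower among 8 named of 18 listed. In the fit with a level-dependent variance 6 of the 8 passed, all higher, beside 56.2% of all named genes. The summed level of the 8 (log2 of the sum) was 10.91 to 10.96 on the Ctrl arrays and 12.49 to 12.52 on the Bex10 arrays. The largest log2 differences were those of Cd36 (3.05 ± 0.18), Dgat2 (2.56 ± 0.10), Fabp4 (2.56 ± 0.16) and Pparg (1.85 ± 0.10), and Cebpd was the lower one (-0.60 ± 0.10).

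The named genes with a pattern most like each member were taken by the root mean square distance between values on the 4 arrays, after each cluster's own mean was removed. Ly6a was closest to Il4ra, an interleukin receptor chain (distance 0.0054 log2), Fam54a (0.006) and the cyclin Ccna2 (0.0093). Ly6c2 was closest to Cd97, an adhesion receptor of the G protein-coupled type (0.0036), Dab2, an endocytic adaptor (0.0123), and Colec12, a scavenger receptor (0.0143). Cd34 had no neighbour this close, and its nearest were Syt12 (0.0537), Errfi1, an inhibitor of ERBB receptors (0.0541), and Ifitm1, an interferon-induced membrane protein (0.0557). Fap was closest to Ripply1 (0.0588), Plcb1, a phospholipase C (0.0828), and Slc8a1, a sodium-calcium exchanger (0.108). Within 0.1 there were 122 clusters of the authors' table around Ly6c2, 82 around Ly6a, 11 around Cd34 and 3 around Fap. Ly6a and Ly6c2 were 0.0872 apart, Cd34 was 0.238 from Ly6c2 and 0.321 from Ly6a, and Fap was between 0.788 and 1.11 from the other 3. All these genes come from a table cut on the same 4 arrays, and with 4 values per gene the distances mostly describe the size of the Bex difference.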

How the data were processed

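RNA from C2C12 cells was hybridised to 4 Affymetrix mouse gene arrays. The authors deposited log2 values for 35557 clusters, summarised over core exons by RMA in Expression Console, per the labels. Another table holds 559 clusters with the authors' log2 averages, a signed fold change (a score, negative where Bex was lower) and p-values, per the file headers; the submitters' processing notes name Transcriptome Analysis Console. No software version, genome build or annotation release is given in those sources.

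Arrays were grouped by their titles. Gene names came only from the authors' table, where 545 clusters had 1 symbol and 14 several, and a gene with several clusters was taken from that of highest mean. Limma 3.58.1 in R 4.3.3 (lmFit and eBayes, no covariate, Benjamini-Hochberg) was fitted over all clusters, and each SE given is that of this moderated fit. The code was also run on simulated data with the same spread for every cluster. On these arrays the spread changes with level, so that run does not vouch for the fits. The members and the 11 gene lists (190 genes, 31 named) were chosen with earlier results of these data known. Genes named were the members, the 3 most alike by pattern, and the 4 largest differences of each list; Mmp2, Thbs1, Thbs2, Cebpd and Plxna2 were added after their values were seen. Plin1, Lpl and Agpat2 enter only the counts, and 1 gene taken out of the lists is not reported here. Same-numbered arrays were checked for pairing: the differences between replicates correlated at r = 0.00786 over clusters, so the numbers were not taken as pairs. Motifs were searched and promoters aligned in Python 3.11.15 with Biopython 1.88, on RefSeq sequences of GRCm38.p6. Arrays carry no counts, and their number limits the precision.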

Additional observations from a re-analysis of the deposited data

How the results depend on the processing

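With 2 arrays per group, no call on a member is secure, and no alternative reversed the direction of Cd34, Ly6a, Ly6c2 or Fap. Leaving out each array in turn gave log2 differences of -1.23 to -1.20 for Cd34, -0.60 to -0.54 for Ly6a, -0.77 to -0.71 for Ly6c2 and 0.67 to 1.25 for Fap. For Cd34 a median shift gave -1.19 (-1.1865), quantile normalization -1.19 (-1.1875) and the authors' own averages -1.02. For Ly6c2 the authors' averages gave -0.70, and the mean with the shared Ly6c1 and Ly6c2 cluster, added after seeing the data, -0.80. The count of called clusters was 0 in the fit used here, with the replicate number as a block, after a median shift or quantile normalization, and without each array (0 to 0). It was 427 with a variance trend, 105 without the dimmest clusters, 80 at an adjusted p of 0.1 and 2292 by 1.5-fold alone. Among settings added later it was 297 without the 6669 clusters of low ID, 1292 with the trend as well, and 158 with the trend and the block. With the trend it fell to 0 without either Ctrl array, 23 without Bex10 1 and 32 without Bex10 2. The lone array of a reduced group was assumed to vary like the other group. The fit used here called 0 members, beside 0.0% of all clusters, and the trend called Cd34, Ly6a and Ly6c2, beside 1.2%. With the trend and the block Ly6a and Ly6c2 were called, beside 158 of 35557 clusters. Cd34 alone was called without the dimmest clusters, beside 0.422% (Fap was not tested there). Without low IDs Cd34 and Ly6c2 were called, beside 1.03%, and all 4 with the trend as well, beside 4.47%. The members were chosen from this contrast, so nothing is read from these counts. Same-numbered arrays were not shown to be pairs, and the block left the members' differences as they were. Of the distinct listed genes, the 4 members among them, 13 were higher and 18 lower. With the variance trend 10 and 12 of these passed, beside 56.2% of all 536 named genes.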
